A study of Mus musculus with 12 samples.

Results

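The Kmt2d mutant mouse melanoma line 493 is set here against line 971, whose Kmt2d is wild type (WT). The 1300 regions described gave more signal for the histone mark H3K27me3 in line 493 than in line 971. They are every region of the H3K27me3 list deposited for line 493, out of 134023 peaks on the assembled chromosomes in the 8 lists of the series. The list was called, per its name, against the H3K27me3 library of line 971 in place of an input, and the direction of every statement below rests on that name. Chromatin immunoprecipitation followed by sequencing was done in both lines for H3K27me3, H3K4me3, H3K27ac and H3K4me1, with 1 library per line and mark, and both lines were cultured in DMEM/F12 medium containing 10% serum (FBS). The H3K27me3 antibody was ab6002 from Abcam. Each genotype is thus 1 cell line, and the labels do not say how the mutation arose. With 1 library per line there is no replicate check, so values are given without p-values of a difference between lines, and intervals on shares cover counting error only.

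H3K27me3 is placed by Polycomb repressive complex 2 and marks silent developmental genes, where it forms broad domains over promoters rich in CpG. KMT2D, the enzyme encoded by Kmt2d, places H3K4me1 at enhancers in a complex that also holds KDM6A, a demethylase that removes H3K27me3. H3K4me3 marks the starts of active genes and, together with H3K27me3, the starts of poised developmental genes, while H3K27ac marks active enhancers and promoters.

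A region overlapped the promoter window of RefSeq (250 bases before to 50 after a start, build GRCm38.p6) for 2 protein-coding genes, Matk and Rap1gap. Matk encodes a kinase that restrains Src family kinases, and Rap1gap a protein that switches off the small GTPase Rap1. Both windows are printed from 5′ to 3′ on the strand of the gene, with the bases inside the region in capitals. They are the only protein-coding windows that a region overlapped. The Matk window is chr10:81257049-81257348, plus strand, and the Rap1gap window is chr4:137724211-137724510, plus strand.
Matk: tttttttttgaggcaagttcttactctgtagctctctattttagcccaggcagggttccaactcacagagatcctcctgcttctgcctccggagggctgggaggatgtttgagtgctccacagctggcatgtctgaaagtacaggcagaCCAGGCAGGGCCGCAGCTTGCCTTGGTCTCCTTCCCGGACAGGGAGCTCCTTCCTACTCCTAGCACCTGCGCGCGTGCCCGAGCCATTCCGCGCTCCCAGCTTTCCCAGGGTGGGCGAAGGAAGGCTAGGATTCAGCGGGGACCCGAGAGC
Rap1gap: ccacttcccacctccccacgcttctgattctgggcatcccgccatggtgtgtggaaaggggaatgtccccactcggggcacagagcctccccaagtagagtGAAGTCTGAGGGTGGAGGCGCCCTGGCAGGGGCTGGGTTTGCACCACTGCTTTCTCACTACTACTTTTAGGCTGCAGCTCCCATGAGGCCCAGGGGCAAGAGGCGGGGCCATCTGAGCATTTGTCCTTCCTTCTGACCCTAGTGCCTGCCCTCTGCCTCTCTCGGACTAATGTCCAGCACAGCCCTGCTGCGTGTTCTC
The region covered 151 of the 300 bases at Matk and 199 of the 300 bases at Rap1gap. The observed over expected CpG ratio was 0.460 at Matk, with 12 CpGs, and 0.256 at Rap1gap, with 7 CpGs, both under the 0.6 often used to call a CpG island.
The third window shown belongs to Basp1, a membrane-bound growth cone protein, whose region had the lowest p among regions within 1 kb of a gene start after those of Matk and Cibar2. It lies at chr15:25413715-25414014 on the minus strand, and CpGs are in capitals.
Basp1: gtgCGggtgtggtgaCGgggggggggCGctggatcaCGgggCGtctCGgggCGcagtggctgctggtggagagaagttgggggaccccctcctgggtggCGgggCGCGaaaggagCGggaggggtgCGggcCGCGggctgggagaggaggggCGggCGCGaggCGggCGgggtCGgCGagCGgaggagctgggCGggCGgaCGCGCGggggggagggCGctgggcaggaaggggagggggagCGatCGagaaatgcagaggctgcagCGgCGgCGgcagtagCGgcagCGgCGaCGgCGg
This window held 38 CpGs, with an observed over expected ratio of 1.08 and 78.0% G or C. The region itself, at chr15:25414405-25414570, lay 641 bp upstream of the start and outside the window.

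The regions were short and weak as ChIP-seq peaks go. Their widths ran from 151 bp to 563 bp with a median of 162 bp, and 581 regions (44.7%) had the minimum width of 151 bp. The peaks of the WT H3K27me3 list, called against input, had a median width of 456 bp and reached 25364 bp. Together the regions covered 0.269 Mb. The authors' fold of the line 493 library over the line 971 library, the measure that chose the regions, ran from 3.03 to 7.84 with a median of 4.35. The deposited −log10 p ran from 4.12 to 12.4 with a median of 5.49. The lowest deposited −log10 q was 1.01, and the 5 regions nearest to that limit had −log10 q values of 1.01 to 1.04 and folds of 3.57 to 3.62. Of the 1300 regions, 1160 reached a −log10 q of 1.3, 305 (23.5%) reached 2 and 18 (1.38%) reached 3. No values of regions that missed the limit are in the list.

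The deposited fold and −log10 p of a MACS2 peak are both set by the number of fragments and the background expected from the control. For 95 regions (7.31%) a whole number of fragments solved both values to within 2e-05. It was 5 fragments in 89 regions and 6 fragments in 6. The smallest background among them was 0.436 fragments, shared by 39 regions. For 1290 regions an average number of fragments could be solved, with a median of 6.50 against an expected background of 0.684. The background was at least 1 fragment in 24 regions and at least 2 in 4. At nearly all regions the WT H3K27me3 library thus had a background of less than 1 fragment in the control's scaled value. These counts are few, and each single region rests on a handful of fragments of 1 library.

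The 4 regions with a background of at least 2 were a pair near the start of Tshz3 and a pair at starts of Rap1gap. Tshz3, a zinc finger transcription factor of neural and kidney development, was singled out after its values were seen. Its regions at chr7:36695751-36696008 and chr7:36694476-36694670 had the lowest folds of all, 3.05 and 3.03, with solved values of 13.5 and 12.7 fragments against backgrounds of 3.74 and 3.52. Rap1gap held 3 regions, each within 1 kb of a start, with folds of 3.69, 3.55 and 3.37. Their solved values were 12.6 fragments against a background of 2.68, 10.6 against 2.25 and 9.0 against 1.97. The background expected from the WT H3K27me3 library, as the control, was thus higher here than at nearly all other regions. It is an expected value solved from averages over a region, not a count of WT fragments at the position.

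**Figure D1:**
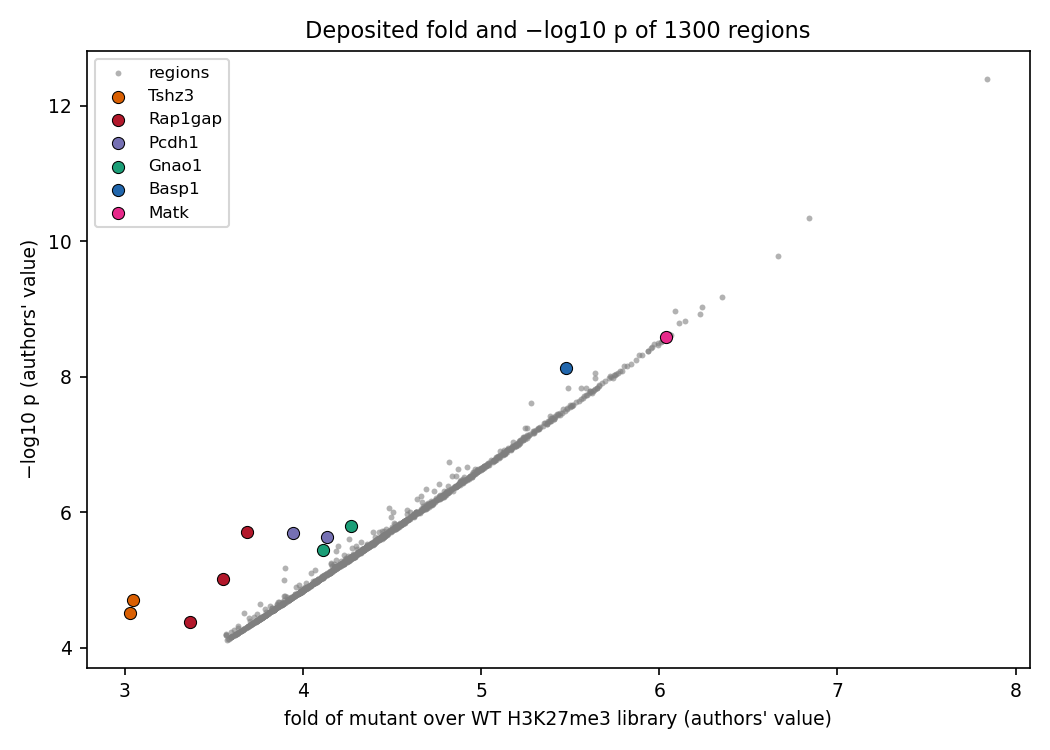
Authors' fold of the line 493 over the line 971 H3K27me3 library (x axis) and authors' −log10 p (y axis), 1 point per region, with the regions of 6 genes, chosen after their values were seen, in colour. Most regions, with a background under 1 fragment, lie close to 1 narrow curve. The Tshz3 and Rap1gap regions lie left of it, with folds of 3.03 to 3.69.

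The 10 regions with the lowest p were mostly far from gene starts, and their genes are named after their values were seen. The first, at chr2:181928988-181929203 with a fold of 7.84, lay 17.3 kb from Gm40035, a predicted gene. The second, at chr15:7122454-7122762 with a fold of 6.84, lay inside Lifr, the receptor of leukemia inhibitory factor. Inside genes as well were the regions of Myo3b, a class III myosin (fold 6.23), Prdm6, a transcriptional repressor (6.14), and Blnk, a B cell receptor adaptor on chromosome 19 (6.11). Those nearest to Ccng1, Atp11b, Phf21a, Fam174b and Plxna1 lay 19.6 kb to 155 kb outside the gene. The widest region, 563 bp, lay in Tmem178b with a fold of 3.84. Next came Megf11, an adhesion receptor of neurons, with 560 bp, and a region of 524 bp that lay 54.5 kb from Pdgfra, the receptor for platelet-derived growth factor and a fibroblast marker.

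Regions were unevenly spread over chromosomes. There were 0.481 regions per Mb overall. Chromosome 10 from 80 Mb on held 101 regions, or 2.0 per Mb, and chromosome 19 held 89, or 1.53 per Mb. The rest of chromosome 10 held 33 regions, or 0.429 per Mb. Chromosome X had 0.721 per Mb, chromosome 6 had 0.716 and the other autosomes 0.233 (chromosome 12) to 0.607 (chromosome 11). The dense part of chromosome 10 and chromosome 19 together held 190 regions (14.6%), at 1.75 per Mb, against 0.428 per Mb elsewhere. In steps of 10 Mb along chromosome 10, the number was 2 to 7 in each step below 80 Mb and 15 to 26 in each from 80 Mb to the last full step. The folds were alike, with medians of 4.45 on chromosome 10 from 80 Mb on, 4.33 on chromosome 19 and 4.35 over all regions.

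The same stretches stood apart in H3K27ac and, among autosomes, in H3K4me1 of line 493, both called against its own input. For every 100 H3K27ac peaks of the WT line, the mutant line had 118 on chromosome 10 from 80 Mb on, 116 on chromosome 19 and 68.2 elsewhere. For H3K4me1 the numbers were 53.3, 44.6 and 19.4, and for H3K4me3 84.2, 84.4 and 77.3. On chromosome X, the next densest in regions, there were 73.8 mutant H3K27ac and 90.7 mutant H3K4me3 peaks per 100 WT peaks, and this H3K4me3 ratio was higher than in both stretches. The H3K4me1 ratio there, 42.1, rests on 8 mutant and 19 WT peaks. WT H3K27me3 peaks numbered 6.74 per Mb on chromosome 10 from 80 Mb on, below the 9.39 per Mb of the whole genome, and 14.05 per Mb on chromosome 19, above it. Over the 20 chromosomes other than Y, region density and the H3K27ac ratio had a Pearson's r of 0.761 and a Spearman's rho of −0.07. The order of the chromosomes as a whole thus did not follow the H3K27ac ratio. For the H3K4me1 ratio r was 0.803 and rho 0.373, and for the H3K4me3 ratio r was 0.454 and rho 0.337. Because the control of the list is a library of the other line, more H3K27me3 per copy of a locus and more copies of it in line 493 cannot be told apart. Results below are also given without these stretches where they differ.

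**Figure D2:**
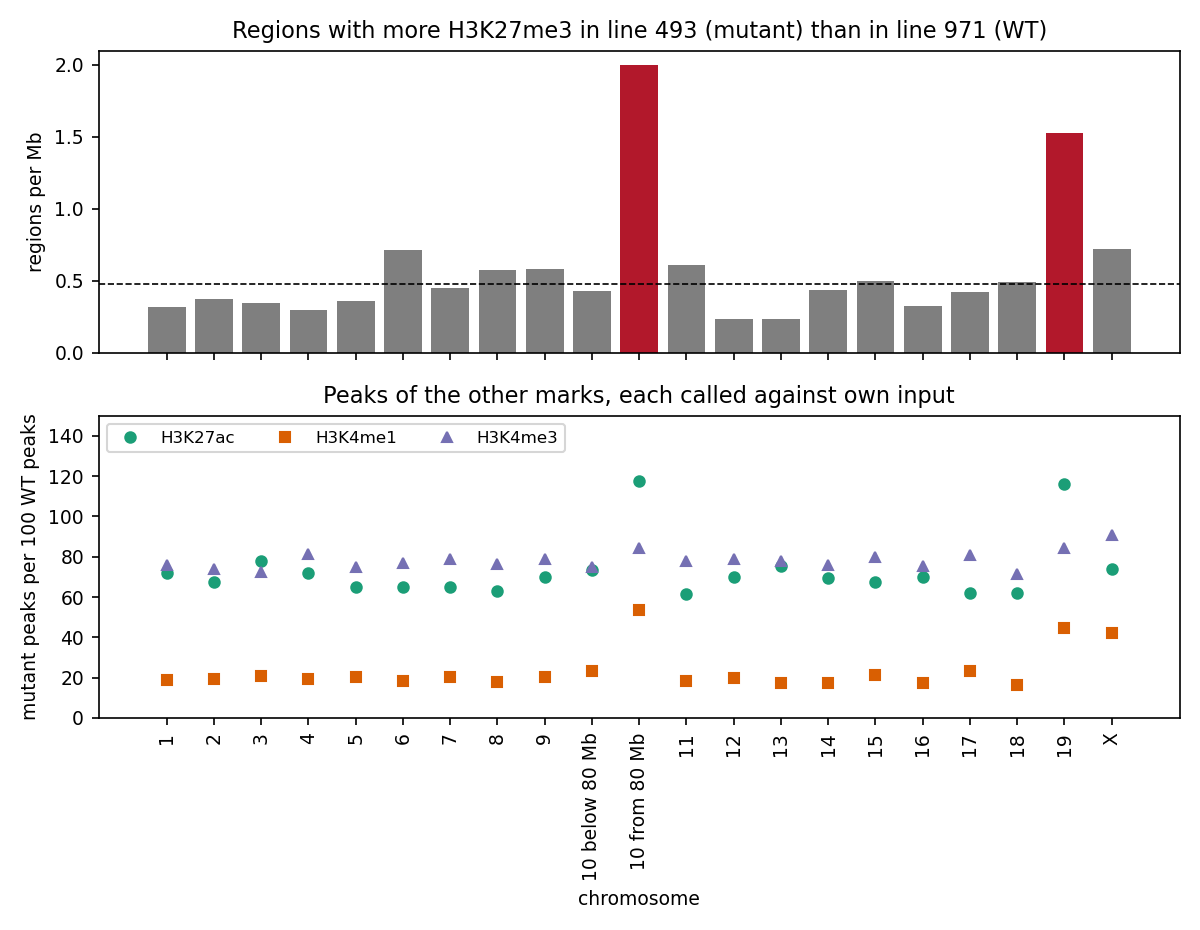
Upper panel: regions per Mb on each chromosome, with chromosome 10 split at 80 Mb and the mean over the assembled genome, 0.481, as a broken line. Lower panel: mutant peaks per 100 WT peaks for 3 marks; chromosome 10 from 80 Mb on and chromosome 19 (red bars) had 118 and 116 for H3K27ac, against 68.2 elsewhere.

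Within chromosomes the regions were scattered. The median gap to the next region was 929 kb, and 1100 regions (84.6%) had no other region within 50 kb. Of 2623 bins of 1 Mb, 1758 held no region and the fullest 4 held 6 each. Groups of 3 or more regions with gaps under 50 kb numbered 18 and held 56 regions, 5 of the groups being on chromosome 10 from 80 Mb on or chromosome 19. The largest group, 5 regions over 118 kb, lay in and just beyond Thsd4, a matrix protein that promotes fibrillin microfibril assembly. Rap1gap had its 3 regions within 44.2 kb, and Cdh23, a cadherin of hair cells named after its values were seen, 3 within 56.5 kb. A group of 3 within 33.2 kb lay partly in and partly beyond Fgf12, an intracellular regulator of sodium channels.

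The regions lay outside the Polycomb domains of the WT line. None of the 1300 regions overlapped a WT H3K27me3 peak, which allows a share of up to 0.231% by a floor of 3 counts and 0.295% by the Wilson 95% interval, while these peaks cover 0.699% of the assembled bases. Within 1 kb of a WT H3K27me3 peak were 9 regions, or 0.692% (0.365% to 1.31%), against 2.06% of bases. At larger distances the order turned. Within 50 kb lay 26.8% of region midpoints (24.5% to 29.3%) against 17.5% of bases, and within 100 kb 37.5% against 25.7%. The same shares without the 2 dense stretches were 27.1% and 38.4%. An excess within 100 kb was also seen at H3K4me3, with 58.4% against 47.6% in the mutant and 57.2% against 50.2% in the WT line. At H3K27ac of both lines and mutant H3K4me1 midpoints lay below the bases, and at WT H3K4me1 they were alike (32.5% against 32.4%). The bases include 90.8 Mb of chromosome Y, which held no region. A WT H3K27me3 peak adds to the control of the list, so the absence of overlap is not independent of how the regions were called.

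**Figure D3:**
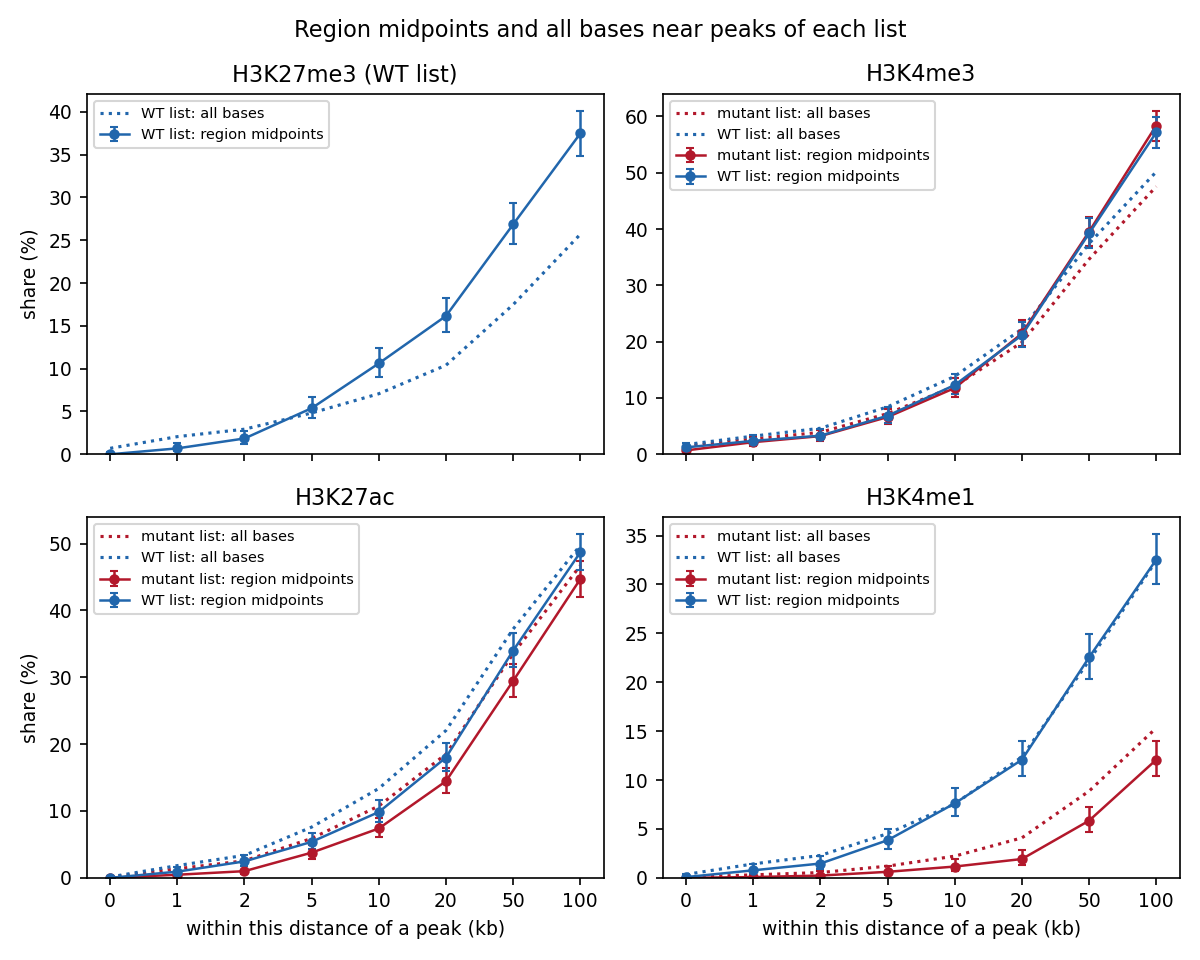
Share of region midpoints (points, with Wilson 95% intervals) and of all assembled bases (dotted lines) within a distance of 0 to 100 kb of a peak, for mutant lists in red and WT lists in blue. Midpoints fall below the bases at WT H3K27me3 peaks up to 2 kb and above them from 10 kb on, reaching 37.5% against 25.7% at 100 kb.

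Regions lay in the peaks of other marks no more often than assembled bases did, and less often in mutant H3K4me3 peaks. Overlap needs only 1 bp of a region, so it is not the same measure as a share of bases. In total 1278 regions (98.3%) overlapped no peak of the 7 other lists, and 1063 (81.8%) had none within 5 kb, against 97.1% and 80.2% of assembled bases. H3K4me3 of the mutant line overlapped 9 regions (0.692%, 0.365% to 1.31%), against 1.48% of bases. H3K4me3 of the WT line overlapped 19 (1.46%, 0.938% to 2.27%), against 1.73%. H3K27ac, which covers 0.0885% of bases in the mutant and 0.134% in the WT line, overlapped no region in either. H3K4me1, with 0.0557% and 0.349% of bases, overlapped no region in the mutant line and 2 in the WT line. Within 1 kb, mutant H3K27ac was found at 6 regions (0.462%, 0.212% to 1.0%) against 1.36% of bases, and WT H3K27ac at 18 (1.38%, 0.878% to 2.18%) against 1.83%. H3K4me1 was within 1 kb of 2 regions in the mutant and 10 in the WT line (0.154% and 0.769%), against 0.308% and 1.42% of bases. WT H3K27me3 peaks overlapped mutant H3K4me3 in 6.23% and WT H3K4me3 in 5.64% of cases, more than regions did, but had WT H3K27ac within 1 kb in 0.421%, less than regions.

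Where regions did meet WT H3K4me3, most did not overlap mutant H3K4me3. Of the 19 regions in WT H3K4me3, 12 (63.2%, 41.0% to 80.9%) were outside mutant H3K4me3, while 22.5% of all WT H3K4me3 bases were. Here and below, overlap by at least 1 bp is set against shares of bases, which is an unlike measure. Some of the 12 only crossed the edge of a WT peak, as at Dysf, Nkap and Ttc39b. With at least 50% of the region covered, 9 regions had H3K4me3 in the WT line alone. In WT peaks at least 2 kb wide it was 8 of 13 regions (61.5%, 35.5% to 82.3%), against 13.6% of their bases. The 9 mutant H3K4me3 peaks with a region had a median width of 1.43 kb, against 1.98 kb for all, and 2 of them had no WT counterpart (22.2%), against 8.24% of all mutant H3K4me3 peaks. Of the 9 regions in mutant H3K4me3, 2 (22.2%, 6.32% to 54.7%), at Cldn5 and Rap1gap, were outside WT H3K4me3, against 9.52% of mutant H3K4me3 bases. Counting peaks within 1 kb in place of overlap left 6 of 32 regions (18.8%) near WT H3K4me3 alone, so the gap lies within 1 kb of mutant H3K4me3 for most. The comparison was chosen after its values were seen, and it rests on 1 library per line.

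The 19 regions lay in 17 WT H3K4me3 peaks, which were wider than most, with a median of 2.85 kb against 1.61 kb for all WT H3K4me3 peaks. A mutant H3K4me3 peak was missing altogether at 2 of the 17 (11.8%), near Ttc39b and Copb2, against 27.8% of all WT H3K4me3 peaks, so a missing counterpart was not more frequent there. Under 50% of the bases were kept at 6 of the 17 (35.3%, 17.3% to 58.7%), against 30.8% of all WT H3K4me3 peaks, many of which are narrow. A difference appeared only in peaks at least 2 kb wide. This limit, like that of 50%, was chosen after the values were seen. Of the 11 peaks at least 2 kb wide, 10 kept a smaller share of their bases under mutant H3K4me3 than the median WT peak of that width. The median kept share was 67.2% at these 11 peaks and 92.3% at all 9643 such peaks. Under 50% was kept at 4 of the 11 (36.4%, 15.2% to 64.6%), against 4.76% of all such peaks. The interval does not allow for the choice of the limits. With regions of a −log10 q of at least 2 it was 0 of 1. The 11 were not matched in width to the 9643, and wider peaks offer more bases for a region to fall in. None of the 17 peaks was on chromosome 10 from 80 Mb on or chromosome 19.

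The widest of them lay at the start of Slit2, which encodes a secreted guidance cue that signals through Robo receptors. Mutant H3K4me3 covered 2.80 kb there in 2 peaks, against a single WT peak of 7.37 kb (chr5:47982439-47989803). The region, with a fold of 4.20, lay 2663 bp from the start, in the smaller mutant peak, 0.984 kb wide with a score of 135. The larger mutant peak was 1.82 kb wide with a score of 565. The WT peak had a score of 3100, shared by the WT peaks of Basp1, Tshz3 and others here, so it may be an upper limit. At Lfng, a glycosyltransferase that modifies Notch receptors, mutant H3K4me3 covered 2.02 kb of a WT peak of 5.26 kb, and the region had a fold of 4.26. Sirpa, the receptor for the "don't eat me" signal CD47, had 1.87 kb in the mutant line of a 4.15 kb WT peak. H3K4me3, H3K27ac and H3K4me1 were each called within 1 kb of a gene end in the WT line alone. Fam117a had 1.31 kb of 2.85 kb. Lfng, Fam117a, Gnao1, Pdgfb, Tshz3, Ptprg, Ttc39b and Copb2 were named after their values were seen.

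At Gnao1, the alpha subunit of a G protein abundant in neurons, 2 regions with folds of 4.27 and 4.11 lay outside mutant H3K4me3, which covered 2.16 kb of a WT peak of 3.66 kb. At Basp1, mutant H3K4me3 covered 2.44 kb in 2 peaks, of a WT peak of 3.63 kb. The region, with a fold of 5.48, lay in the smaller mutant peak, 0.688 kb wide with a score of 81.4. The CpG-rich Basp1 window printed above had 277 of 300 bases under mutant and 300 under WT H3K4me3. Pdgfb, a platelet-derived growth factor ligand, had 2.68 kb of 3.80 kb, and Tshz3 4.43 kb of 6.28 kb. At the other end, Ptprg, a receptor tyrosine phosphatase, kept 88.6%, Nkap, a transcriptional regulator on chromosome X, 93.1%, and Asb4, an ankyrin repeat protein, 98.5%.

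**Figure D4:**
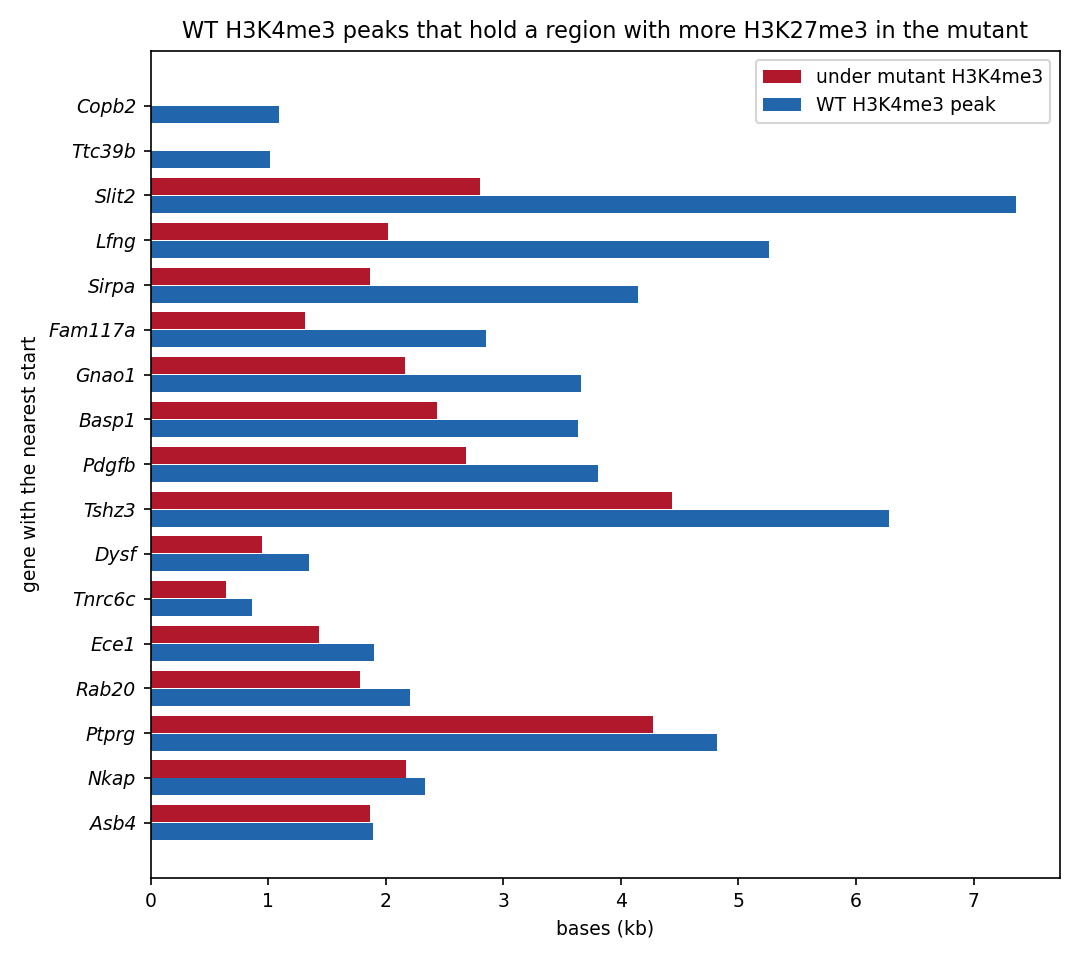
Bases in kb of the 17 WT H3K4me3 peaks that hold a region (blue) and of the part covered by mutant H3K4me3 (red), labelled by the gene with the nearest start (or gene end, where no start was given) and ordered by the share covered, least at the top. Slit2, Lfng, Sirpa and Fam117a kept under 50%, and Copb2 and Ttc39b had no mutant peak.

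Gene starts were reached about as often as their share of the genome, and less often than by WT H3K27me3 peaks. Of 21887 protein-coding genes, 33 (0.151%) had a region within 1 kb of a start, 48 (0.219%) within 1 kb of either end, and 456 (2.08%) were overlapped by a region, while 9.11% had a WT H3K27me3 peak at the start. Regions within 1 kb of a start numbered 35 (2.69%, 1.94% to 3.72%), against 10.6% of WT H3K27me3 peaks and 1.98% of bases. The median distance to a start was 53.2 kb for regions and 13.7 kb for WT H3K27me3 peaks. Region density varied little with gene density outside bins without genes. Bins of 1 Mb with no protein-coding gene held 0.204 regions per Mb, those with 1 to 4 genes 0.525, those with 5 to 14 genes 0.557 and those with at least 15 genes 0.519. WT H3K27me3 peaks in the same bins numbered 0.104, 2.30, 11.2 and 27.3 per Mb.

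A start came from the RefSeq promoter table for 24 of the 33 genes. For Ankrd33, Cbln2, Cyp2c23, Fli1, Loxhd1, Olfr786, Pcdh12, Sirpa and Tmem171 either gene end stood in for it, so their region, and the marks given at their start, may lie at the other end of the gene, and at different ends from each other. The marks at the starts of the 33 genes are given beside the shares of all genes, and each share rests on few genes. H3K4me3 was called in neither line at 18 of them (54.5%), against 41.1% of all genes, and in both lines at 10 (30.3%), against 56% of all genes. It was called in the mutant line alone at 3 and in the WT line alone at 2, where the shares of all genes were 1.65% and 1.25%. The 3 were Adamts3, a procollagen protease, Cldn5, a tight junction protein of endothelium, and Fli1, an ETS transcription factor of blood and vessels. The 2 were Sirpa and Ldb3, a protein of the muscle Z-disc. H3K27ac was called in the mutant line alone at 0 of the 33, against 6.84% of all genes, and in the WT line alone at 5 (15.2%), Asb4, Dysf, Nkap, Rap1gap and Sirpa, against 16.2%. It was in both lines at Med10, a Mediator subunit, and in neither at 27 (81.8%), against 63.7%. H3K4me1 was called at 1 of the 33, Sirpa, in the WT line alone, against 2.66% of all genes. No gene of the 33 had it in both lines or in the mutant line alone, against 0.366% and 1.71% of all genes, and 32 had it in neither, against 95.3%. WT H3K27me3 was at the starts of 4 of the 33 (12.1%), Matk, Astl, Fam187b and Fli1, which is near the 9.11% of all genes.

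Among the 33, the strongest regions by deposited p were those at Matk (fold 6.04), Cibar2 (5.95) and Basp1 (5.48). Without the dense stretches 29 genes were left, and Matk and Apc2 lie on chromosome 10 from 80 Mb on. Fam187b followed with 5.07 and Fli1 with 5.04. Cbln2, a secreted synapse organizer, had 4.86, Pcdh12, a protocadherin of endothelium, 4.81, Krt27, a hair follicle keratin, 4.80, and Rab20, a small GTPase, 4.77. Astl, the egg protease that cleaves the zona pellucida, had 4.62 and Apc2, a relative of the Wnt pathway scaffold Apc, 4.60. C5ar1, the receptor of complement C5a, had 4.52, Dysf, dysferlin of muscle membrane repair, 4.50, and Cyp2c23, a cytochrome P450 on chromosome 19, 4.39. In the gene and the 10 kb on either side, Fli1 had 16.5 kb and Astl 13.001 kb of WT H3K27me3, while Basp1, Cbln2, C5ar1, Rab20 and Pcdh12 had none.

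Promoter windows with a region within 1 kb were less rich in CpG than those with WT H3K27me3. Over 42 such windows of 36 genes, the median G or C content was 56.8% against 52.7% of all 32851 windows, and the median CpG observed over expected ratio 0.386 against 0.384. For the 30 windows of protein-coding genes the ratio was 0.468, against 0.590 for windows with WT H3K27me3 within 1 kb and 0.567 for all. The letters GAGAG, on either strand, were in 66.7% of these 30 windows and 62.0% of all protein-coding windows, and CGCG in 50% and 49.2%. None of 1005 miRNA hairpins had a region within 1 kb.

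Many regions lay inside genes. Of the 1300, 552 (42.5%, 39.8% to 45.2%) overlapped a protein-coding gene, against 38.2% of assembled bases and 47.6% of WT H3K27me3 peaks. The overlapped genes had a median length of 138 kb, against 17.2 kb of all genes, and 62 genes held at least 2 regions. A region overlapped 0.329% of genes under 20 kb, 1.91% of those of 20 to 100 kb, 7.80% of those of 100 to 300 kb and 22.6% of longer ones, as longer genes offer more bases. Per Mb of gene the density varied little, with 0.45, 0.449, 0.588 and 0.597 regions in the same order of lengths.
Thsd4 and Myo3b had 5 regions each, and Anks1b, of 1100 kb, had 5 within the dense stretch of chromosome 10. Lgr5, a receptor for R-spondins that marks stem cells, held 4 in 137 kb of chromosome 10 (folds 5.35, 4.58, 4.36 and 3.89), within the same stretch. Fgf12, Mob3b and Kcnma1, the BK potassium channel, held 4 each outside it, and Pcsk5, a proprotein convertase, 4 on chromosome 19. Rap1gap, with 3 regions in 65.2 kb, had the most per length among the genes with at least 3.

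The gene lists, 663 genes in 20 lists, had 34 members (5.13%) overlapped by a region and 1, Cldn5, with a region at the start, against 2.08% and 0.151% of all genes. Without the 2 dense stretches, which hold Pax2, Syt1 and Lgr5, 31 list genes were left. Median gene length differed widely among the lists that were hit most. Adhesion and guidance genes, with a median length of 285 kb, had 8 of 52 overlapped (15.4%), between the shares of genes of 100 to 300 kb and of longer ones. These were Slit2, Slit3, the Slit receptor Robo1, Sema3a and Sema3c, the netrin receptor Dcc, Cdh13 and Cntnap2, with folds of 3.64 to 4.79. Neuronal channels and receptors, with a median length of 70.9 kb, had 7 of 50, which are 147 kb (Scn2a) to 514 kb (Kcnd2) long. Among them were the sodium channel Scn2a (fold 5.14), the glutamate receptor Gria1 (3.93) and Syt1, a vesicle calcium sensor (5.10). Syt1 lies in the dense stretch of chromosome 10.

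Developmental regulators, the usual targets of Polycomb, were mostly short genes. All 39 Hox genes, with a median length of 3.74 kb, had WT H3K27me3 at the start and 0 had a region, a count that says little where 0.329% of all genes under 20 kb had one. Of 109 developmental transcription factors, 73.4% had WT H3K27me3 at the start and 4 (3.67%) were overlapped, against 2.08% of all genes; the median length in this list was 7.71 kb. Those were Pax2, a kidney and eye regulator on the dense chromosome 19 (fold 5.37), Pax5, the B cell regulator (4.85), and the LIM homeobox genes Lhx8 (4.39) and Lhx6 (3.89). In that order they are 91.7 kb, 186 kb, 24.3 kb and 24.0 kb long, all above the median of the list. In the gene and the 10 kb on either side, WT H3K27me3 covered 61.9 kb at Pax2, 31.9 kb at Pax5, 6.67 kb at Lhx8 and 0.416 kb at Lhx6. Of 18 Sox genes, with a median length of 4.79 kb, 3 (16.7%) were overlapped, against 2.08% of all genes. Sox6 is 570 kb long, and 22.6% of all genes longer than 300 kb were overlapped. Sox17 and Sox11 are short, with 6.50 kb and 8.45 kb. Sox17, an endoderm and vessel regulator, had a region with a fold of 5.77 lying 1174 bp from the nearer gene end, Sox11, of neural progenitors, one with 5.06 and Sox6 one with 5.18. Sox17 and Sox11 had no peak of any other list within 10 kb.

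In the other lists the counts were small. Of all genes 2.08% were overlapped, with 0.329% under 20 kb, 1.91% at 20 to 100 kb and 7.80% at 100 to 300 kb. Median lengths were 29.9 kb in the pigment, 27.7 kb in the neural crest, 61.1 kb in the endothelial and 38.2 kb in the fibroblast list. Of their overlapped members, Mitf (214 kb), Oca2 (297 kb) and Vwf (134 kb) are long and Cldn5 (1.42 kb) is short. The others run from 22.9 kb (Wnt5a) to 81.7 kb (Kit). No list was matched for length. Genes of the pigment lineage were reached away from their starts. Mitf, its master regulator, had a region with a fold of 4.17 lying 18415 bp from a start, Oca2, a melanosome channel, one with 4.58, and the receptor kinase gene Kit one with 3.86, so 3 of 24 members were overlapped. Among neural crest and invasive state genes it was 3 of 30, Wnt5a (4.66), the P-cadherin gene Cdh3 (3.62) and Rxrg (4.91). Endothelial genes had 3 of 11, Cdh5 (4.72), Cldn5 (3.92) and Vwf (4.35), and fibroblast genes 1 of 17, Fap (4.78). Wnt ligands and receptors had 2 of 43, Wnt5a and Lgr5. The list of BMP, TGF, FGF, Hedgehog and Notch ligands had 1 of 57, Fgf12, itself an intracellular regulator and not a secreted ligand. The 10 lists with no member overlapped were Hox, H3K4 and H3K27 enzymes, IGF and insulin signalling, antigen presentation and interferon, cell cycle and tumour suppressors, glycolysis, housekeeping, imprinted, immune and keratinocyte genes. Kmt2d itself held no region, and H3K4me3 was at its start in both lines.

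As a check of the cell type, H3K4me3 was at the starts of 5 of 8 defining melanocyte genes in the mutant line and 3 of 8 in the WT line, where 57.6% and 57.2% of all genes had it. Mitf, Pax3 and Pmel had it in both lines and Sox10 and Mlana in the mutant line alone, and Tyr, Tyrp1 and Dct had it in neither. WT H3K27me3 was at the starts of Sox10 and Tyr. Of 6 fibroblast markers, 3 had it in the mutant and 4 in the WT line, of 5 keratinocyte markers 2 and 0, and of 5 endothelial and of 5 immune markers 1 in each line. No region was at the start of any of these markers.

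**Figure D5:**
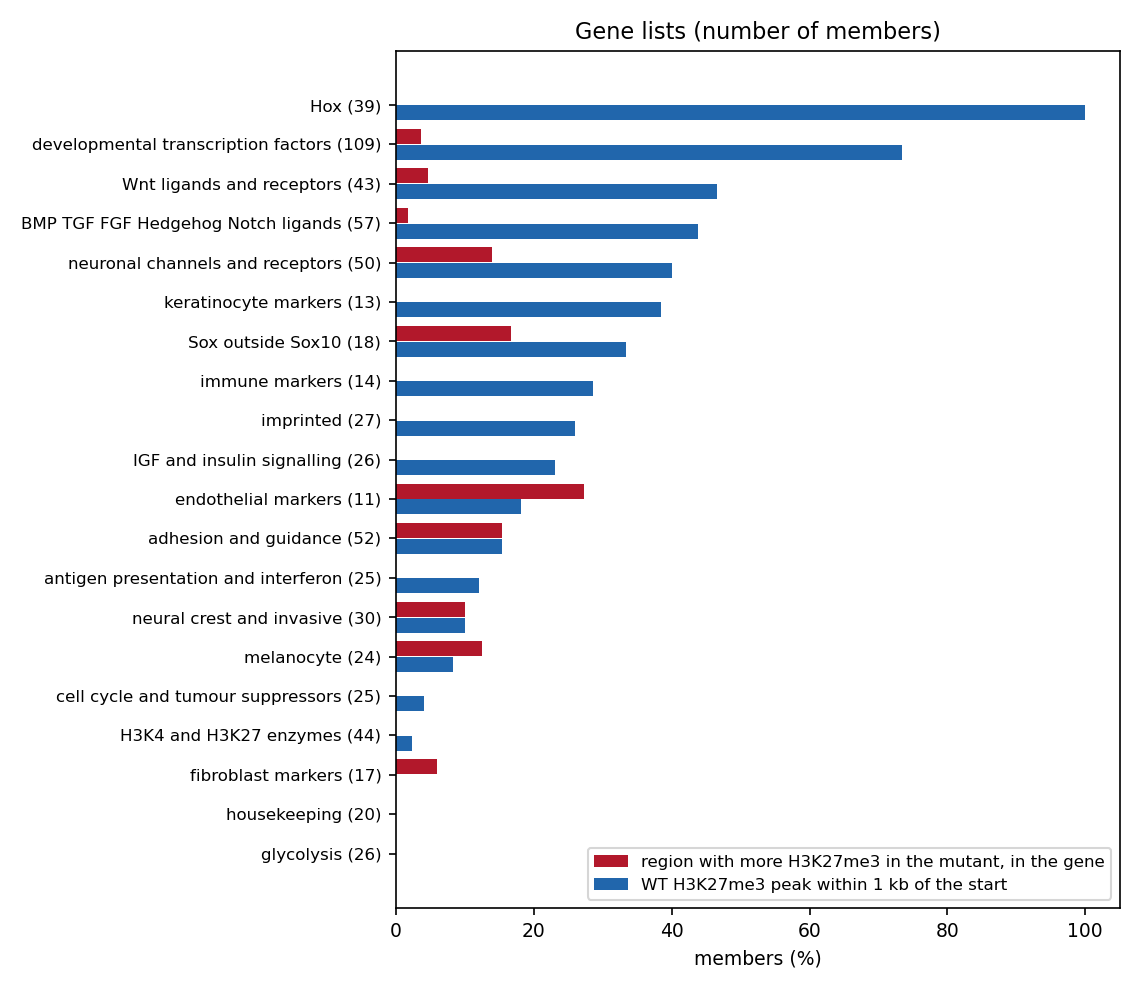
Share of the members of 20 gene lists overlapped by a region (red) and with a WT H3K27me3 peak within 1 kb of the start (blue), ordered by the WT share, with the number of members in brackets. The red bars run from 0 to 27.3% (3 of 11 endothelial genes) and are not adjusted for gene length. Shares of lists this small rest on a few genes each.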

How the data were processed

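ChIP-seq was done on 8 chromatin libraries, 1 per line and mark, and 4 inputs not analysed here. FastQC, MultiQC and MACS2 (versions not given) and build mm10 come from the submitters' processing notes. The sources used here give no aligner, read filter or depth, so the depth is unknown. The authors deposited 1 peak list per library. For every MACS2 peak the authors deposited a fold over the control, which is a ratio, beside its −log10 p and −log10 q values. The H3K4me3 lists have a deposited score, 10 times the −log10 of p. All lists but that of the regions name the line's own input as control.

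Peaks on assembled chromosomes were kept. Overlap meant at least 1 bp, and shares have Wilson 95% intervals. Genes and sequences are from RefSeq GRCm38.p6, the assembly of mm10. The promoter table gave starts for 17492 of 21887 protein-coding genes, and either gene end served for the other 4395, which include all on chromosome 18. Coordinates are 1-based. Fragments were solved from fold and p with the Poisson formula of MACS2, averaged over a region, and the code was checked on simulated data. Python 3.11.15, pandas 2.3.3, numpy 2.4.6 and scipy 1.17.1 were used.

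The regions and gene lists were chosen with earlier results of these data known. Named genes were those with a region within 1 kb, the first 20 by p, with and without the dense stretches, and the first 10 with no WT H3K27me3 within 1 kb. To these were added the nearest genes of the 10 widest regions, the 10 genes with the most region bases, list members with a region, genes whose H3K4me3 or H3K27ac at the start differed between lines, and Kmt2d. A gene that the rule took is not reported here. Genes outside this rule are named as chosen after their values were seen. Limits of 2 kb and 50% for H3K4me3 peaks were also chosen then. Alternatives were stricter regions or peaks, other overlaps and start distances, and leaving out the dense stretches.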

Additional observations from a re-analysis of the deposited data

How the results depend on the processing

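Of 119 alternative values for 21 results, 76 stayed within the interval or 1.5-fold limit and 43 moved. Counted among the 76 were the alternatives of the median CpG observed over expected ratio of windows with a region within 1 kb, 0.386. With regions of a −log10 q of at least 2 this ratio fell to 0.198, beyond the 1.5-fold limit. It was 0.290 with the more significant 50% of regions, 0.370 without the dense stretches and 0.392 with a region overlapping the window. A median is not a share, so the Wilson intervals given here do not apply to it. No paired analysis was possible because each line and mark had 1 library, and for the same reason no library could be left out. Regions with a −log10 q of at least 2 put 17.4% on the dense parts of chromosomes 10 and 19, 0.328% in mutant and 0.656% in WT H3K4me3 and 0% in WT H3K4me1. They had H3K4me3 in the mutant line alone at 0 and the WT line alone at 1, and H3K4me1 in the WT line alone at 0. They left 7 genes at starts (H3K4me3 in the mutant line alone at 1, WT line alone at 0), 11 list genes, and 0% of wide WT H3K4me3 peaks (0 of 1) under 50%. The more significant 50% of regions had 0% in WT H3K4me1, mutant-alone H3K4me3 at 0, WT-alone H3K4me3 at 5 and WT-alone H3K4me1 at 0. They left 18 genes at starts (1 mutant alone, 1 WT alone) and 21 list genes. Counting peaks within 1 kb gave 0.692% (WT H3K27me3), 2.31% and 2.46% (mutant and WT H3K4me3), 0.462% and 1.38% (H3K27ac) and 0.769% (WT H3K4me1). The counts for the mutant and the WT line alone became 4 and 6 (H3K4me3), 5 and 17 (H3K27ac) and 2 and 10 (H3K4me1), and 18.8% of regions near WT H3K4me3 were then away from mutant H3K4me3. At least 50% coverage left 1 region with WT-alone H3K4me1. The more significant 50% of the mutant H3K4me3 list overlapped 0.154% of regions, and of both H3K4me3 lists gave 0 mutant alone. With both lists so reduced, 72.7% of the wide WT peaks with a region (8 of 11) were under 50%, against 13.2% of all wide WT peaks, and 85.7% of regions in WT H3K4me3 (12 of 14) were outside mutant H3K4me3. Starts within 2.5 kb gave 71 genes, with WT-alone H3K4me3 at 1, and regions on the start itself 2 genes, with 0 in either line alone. The cause of these moves was not tested beyond the fewer regions or peaks each setting leaves or the wider distance it allows. The alternatives for the H3K4me3 peaks, for either gene end and, but for the overlap of the window itself, for promoter sequence were chosen after seeing the data. The share on the dense stretches has no value without them. With about 5 to 8 fragments at most regions, single regions are the least certain values here.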
